A study of Mus musculus with 4 samples.

Results

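The miR-17-92 and miR-106b-25 miRNAs were followed through 4 mouse hepatocarcinoma lines with and without lymphatic metastasis. Members were taken by name and number 7 of the 414 mouse miRNAs on the array: mmu-miR-17, mmu-miR-18a, mmu-miR-19a, mmu-miR-20a and mmu-miR-19b of the miR-17-92 cluster, and mmu-miR-106b and mmu-miR-93 of the miR-106b-25 cluster. Total RNA was read on miRCURY LNA arrays (probes of locked nucleic acid on glass), with 1 array per untreated line. Hca-F has a higher and Hca-P a lower lymphatic metastasis ability, both derive from H22 and both grow in suspension. H22, also in suspension, and Hepa1-6, an adherent line from a cell bank, have none. Per the labels, Hca-F and Hca-P cells were grown for about 7 days in the abdominal cavity of 615 mice and recovered from ascites before culture, so host cells of the ascites could be carried along. The labels give no passage or medium for H22.

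miRNAs are short RNAs that guide silencing complexes to messenger RNAs, mainly through their seed, bases 2 to 8 from the 5′ end. The miR-17-92 cluster is 1 primary transcript cut into several miRNAs. It is transcribed under MYC, a growth-promoting transcription factor, and under E2F factors, and is known for promoting proliferation and survival in tumours, liver tumours among them. The miR-106b-25 cluster is its paralog and lies inside Mcm7, which encodes a subunit of the DNA replication helicase. The mature sequences, from the RefSeq annotation of GRCm38.p6, are shown because members fall into 3 seed groups and several differ by few bases, which bears on what a capture probe can tell apart. The array names give no arm of the hairpin. Each of the 7 was therefore assigned, by usual naming, to 1 RefSeq entry: the 5p arm for miR-17, miR-18a, miR-20a, miR-106b and miR-93, and the 3p arm for miR-19a and miR-19b. The printed sequences and seed groups rest on that assignment. The seed is in capitals.

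mmu-miR-17 (chr14:115043684-115043706, + strand): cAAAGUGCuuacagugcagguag
mmu-miR-20a (chr14:115044183-115044205, + strand): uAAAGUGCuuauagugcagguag
mmu-miR-106b (chr5:138165787-138165807, - strand): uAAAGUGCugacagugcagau
mmu-miR-93 (chr5:138165574-138165596, - strand): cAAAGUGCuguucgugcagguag
mmu-miR-18a (chr14:115043867-115043889, + strand): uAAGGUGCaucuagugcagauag
mmu-miR-19a (chr14:115044048-115044070, + strand): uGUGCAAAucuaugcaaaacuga
mmu-miR-19b (chr14:115044358-115044380, + strand): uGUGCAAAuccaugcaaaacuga
mmu-miR-106a (chrX:52742541-52742563, - strand): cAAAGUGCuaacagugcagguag

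The seed AAAGUGC is shared by 4 members, miR-17 and miR-20a of one cluster and miR-106b and miR-93 of the other. This group is known to target the cell cycle inhibitor p21 and the pro-apoptotic protein BIM. miR-18a has the seed AAGGUGC, and miR-19a and miR-19b have GUGCAAA. With positions counted from 1 at the 5′ end and the first-named miRNA's base first, miR-17 and miR-20a differ at C1U and C12U, and miR-19a and miR-19b at U11C alone. miR-19b is also made from a second locus, chrX:52741991-52742013 on the - strand, and the array cannot tell the loci apart. miR-106a, of the related miR-106a-363 cluster on chromosome X, is no member and is shown because it differs from miR-17 by U10A alone. Its probe read at most 17.8 units in any line, under the detection minimum of 50 intensity units. The sequences of the probes themselves were not used here.

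Each probe was printed as 4 spots. A level is the mean background-subtracted intensity of the 4 spots divided by 1 factor per array, so that a level of 1 is the median of 65 reference probes, and ± gives the SD over the 4 spots. A probe under 50 units was taken as not measured and set to 50, which makes its fold a bound, marked by "at least". The factors lay between 324.5 (Hca-F) and 403.75 units (Hepa1-6), and the minimum corresponds to levels of 0.124 to 0.154. In all, 103 miRNAs were measured in at least 1 line. The 4 spots share 1 RNA sample, and no pair of lines has a replicate check. The arrays also shared spot deviations: over probes measured on both arrays, how far single spots lay from the mean of their probe gave r = 0.758 between Hca-F and Hca-P (78 probes) and 0.657 between H22 and Hepa1-6 (79 probes), against 0.144 to 0.167 for the remaining pairs. The points are spots at shared places on the glass, and r describes the arrays only.

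Markers of cell types were also read. The 4 hepatocyte miRNAs were under the minimum in every line. miR-122, the defining miRNA of hepatocytes, read 12.2 units in Hca-F, 19.2 in Hca-P, 22.2 in H22 and 33.0 in Hepa1-6, so the array gives no measured hepatocyte marker for these liver tumour lines. Of 6 leukocyte miRNAs, miR-142-5p was measured in Hca-P (59.2 units) and none in another line. The summed intensity of the 6 was 83.0 units in Hca-F, 139 in Hca-P, 85.0 in H22 and 15.8 in Hepa1-6. The 2 erythroid and 2 endothelial markers were under the minimum in every line. Of 5 mesenchymal markers miR-214 was measured, at 87.5 units in Hca-F, 70.5 in H22 and 97.5 in Hepa1-6, and read 27.5 in Hca-P.

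The cluster miRNAs were read most strongly in Hca-P and were not measured in Hepa1-6. In Hca-P 6 of 7 members passed the minimum, in H22 4, in Hca-F 3 and in Hepa1-6 none. miR-19a passed in no line, which leaves 6 members measured somewhere. Of all 103 miRNAs measured somewhere, 72.8% passed in Hca-P, 84.5% in H22 and 71.8% in Hca-F, and 32 (31.1%) were under the minimum in Hepa1-6. Among the lines where a miRNA was measured, Hca-P gave the highest level of 5 of the 6 members, against 21 of the 103 miRNAs (20.4%). For miR-18a and miR-19b this was fixed in advance, since they passed the minimum in Hca-P alone. miR-17, miR-20a and miR-106b were measured in Hca-F, Hca-P and H22. The remaining member, miR-93, was highest in H22, as were 37.9% of the 103, and no member was highest in Hca-F (22.3%) or Hepa1-6 (19.4%). The leukocyte sum given above had its highest and lowest values in the same lines as these 5 members, and its part in their levels was not tested. Outside Hca-P that sum came only from probes under the minimum. The leukocyte miRNAs differed in where they read highest. miR-142-5p, miR-142-3p and miR-150 did so in Hca-P, miR-155 and miR-146a in H22, and miR-223 in Hca-F. Each read lowest in Hepa1-6. miR-155 read 43.8 units in H22 and 12.5 in Hca-P. The median mouse probe was also lowest in Hepa1-6, at 3.5 units, against 7.5 in Hca-F and 11.0 in Hca-P and in H22. Fewer expressing cells and less RNA per cell cannot be told apart in such bulk samples.

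"Under the minimum" does not mean without signal. Of 85 positions labelled empty, the brightest read 7.75 units in Hca-F, 2.0 in Hca-P, 3.0 in H22 and 1.25 in Hepa1-6. In Hepa1-6, 6 of the 7 members read above every empty position, with miR-17 at 40.8 units, miR-93 at 40.2 and miR-106b at 31.2. With a minimum of 30 units these 3 counted as measured in Hepa1-6. The median mouse probe in Hepa1-6, at 3.5 units, was also above every empty position, so most of the array passed that bar. miR-19b (4.25 units) and miR-18a (5.75) lay near this median. miR-18a in Hca-F, at 49.2 units, was the value nearest below the minimum, and miR-106b in Hca-F, at 59.0, the nearest above it.

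**Figure D1:**
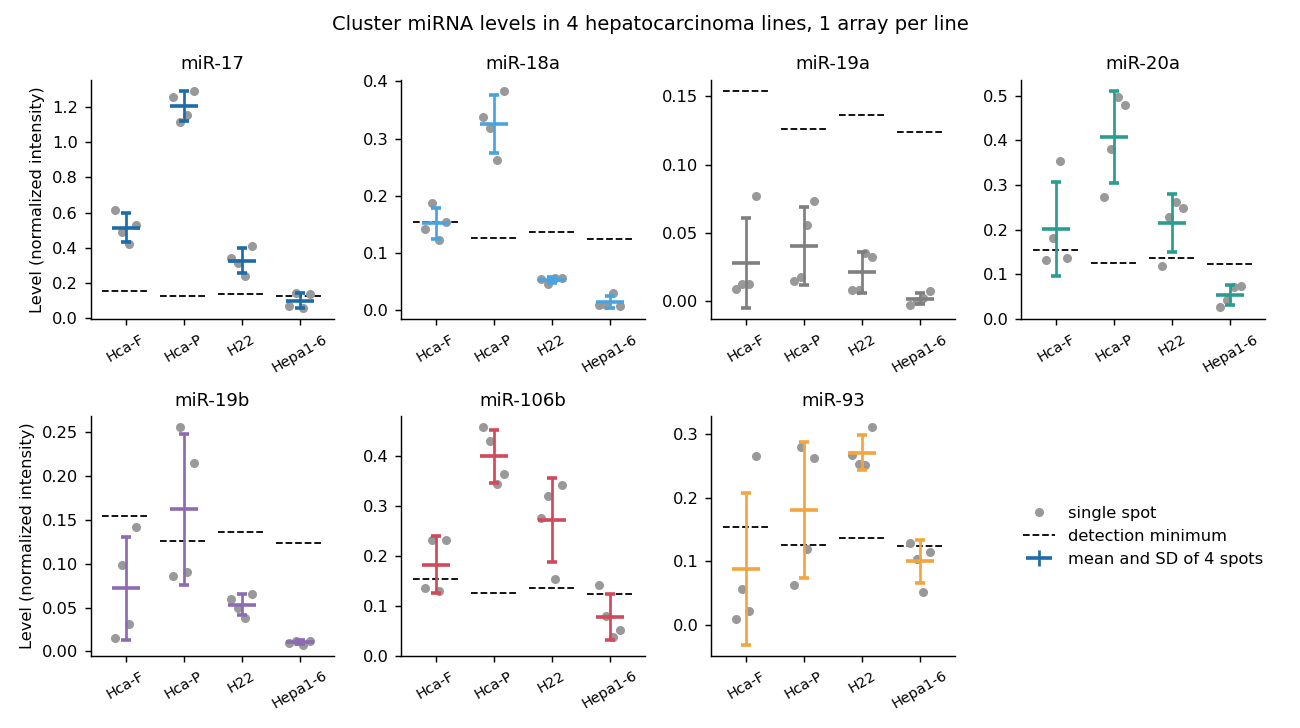
Level of each cluster miRNA (normalized intensity, each panel with its own axis) in Hca-F, Hca-P, H22 and Hepa1-6. Grey points are the 4 spots of the array, bars the mean and SD of the spots, and dashed lines the detection minimum of that array. In Hca-P 5 of the 6 measured members are highest, and miR-18a and miR-19b pass the minimum there alone. No member passes the minimum in Hepa1-6.

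Members with the seed AAAGUGC are described first. mmu-miR-17, the first miRNA of its cluster, was at 0.515 ± 0.0811 in Hca-F, 1.21 ± 0.0831 in Hca-P, 0.326 ± 0.0701 in H22 and 0.101 ± 0.0440 in Hepa1-6. Its spots read 137 to 200 units in Hca-F, 442 to 512 in Hca-P, 88 to 150 in H22 and 23 to 57 in Hepa1-6. After scaling, the spots of no 2 lines overlapped, and the order from high to low was Hca-P, Hca-F, H22 and Hepa1-6.

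mmu-miR-20a, from the same transcript, was at 0.201 ± 0.105 in Hca-F, 0.408 ± 0.103 in Hca-P, 0.215 ± 0.0645 in H22 and 0.0539 ± 0.0230 in Hepa1-6. Its 4 spots in Hca-F were uneven, with 43, 59, 115 and 44 units, against 108, 151, 197 and 190 units at the same places in Hca-P. Hca-F and H22 did not differ beyond their spots, and Hca-P lay above H22 in all spots.

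mmu-miR-106b, of the paralogous cluster, was at 0.182 ± 0.0570 in Hca-F, 0.398 ± 0.0536 in Hca-P, 0.272 ± 0.0840 in H22 and 0.0774 ± 0.0460 in Hepa1-6. Its spots read 42 to 75 units in Hca-F and 136 to 181 in Hca-P, and those of H22, 56 to 125, overlapped with Hca-F after scaling.

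mmu-miR-93 did not follow the same order. It was at 0.0878 ± 0.120 in Hca-F, 0.181 ± 0.107 in Hca-P, 0.270 ± 0.0277 in H22 and 0.0997 ± 0.0334 in Hepa1-6. The spots in H22 lay close together, at 92 to 114 units, while those in Hca-F read 3, 18, 7 and 86 units and those at the same places in Hca-P 25, 111, 47 and 104. The SD in Hca-F exceeded the mean, so the values of miR-93 in Hca-F and Hca-P are known only roughly. H22 and Hepa1-6, whose spots did not overlap, differed at least 2.18-fold.

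mmu-miR-18a, the member with the seed AAGGUGC, was at 0.152 ± 0.0273 in Hca-F, 0.326 ± 0.0502 in Hca-P, 0.0538 ± 0.00516 in H22 and 0.0142 ± 0.0104 in Hepa1-6. Hca-P alone passed the minimum, and its spots, 104 to 152 units, lay above those of each other line. Spots of Hca-F read 40 to 61 units, on both sides of the minimum, and those of H22 17 to 21.

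Members with the seed GUGCAAA came last. mmu-miR-19b was at 0.0716 ± 0.0591 in Hca-F, 0.162 ± 0.0861 in Hca-P, 0.0531 ± 0.0121 in H22 and 0.0105 ± 0.00237 in Hepa1-6, and passed the minimum in Hca-P through 2 of 4 spots (34, 101, 36 and 85 units). mmu-miR-19a read 9 units in Hca-F, 16 in Hca-P, 7.75 in H22 and 0.75 in Hepa1-6, where 7 of the empty positions were as bright. No order of the lines was read from miR-19a.

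The first pair sets Hca-F over Hca-P, the higher over the lower metastasis ability. The cluster miRNAs were lower in Hca-F, while the median of all miRNAs was higher. Of 6 measured members, miR-17, miR-18a, miR-20a and miR-106b (4) were lower by at least 2-fold and none higher, while 11 of all 85 miRNAs were lower (12.9%) and 20 higher (23.5%). miR-18a, miR-19b and miR-93 entered this pair through Hca-P alone, so they could not come out 2-fold higher in Hca-F. The counts and the median of the members include them. The median log2 fold was -1.05 over the members and 0.45 over all 85, which moved to 0.22 after quantile normalization and to 0.16 without scaling. Members measured in both lines had log2 folds of -1.23 (miR-17), -1.02 (miR-20a) and -1.13 (miR-106b). Their differences, at most 0.21, were smaller than the SD from the spots, 0.87 for that pair. That SD takes the 2 arrays as independent, although they shared spot deviations, so it may be too wide. The sequences of miR-17, miR-20a and miR-106b differ from each other by 2 or 3 substitutions, and whether their probes also capture one another was not tested. With normexp background correction the folds were -1.02, -0.60 and -0.65 in the same order. miR-19b (-0.07) and miR-93 (-0.23) were bounds near 0, and with the median of spots the dim reading of miR-19b gave 0.03.

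Because the 2 arrays shared spot deviations, the spots were also set against each other place by place. Hca-F was lower in 4 of 4 places for miR-17, miR-18a, miR-20a, miR-19b and miR-106b, and in 3 of 4 for miR-93. The same count was not made over all 85 miRNAs, so it has no share to be set against. For miR-18a, miR-19b and miR-93, which entered through Hca-P alone, a lower reading in Hca-F was favoured in advance. The full sets of spots did not overlap for miR-17, miR-18a and miR-106b, as for 15 of 85 miRNAs lower in Hca-F (17.6%). With a detection minimum of 100 units, or with normexp background correction, 1 member, miR-17, remained 2-fold lower.

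**Figure D2:**
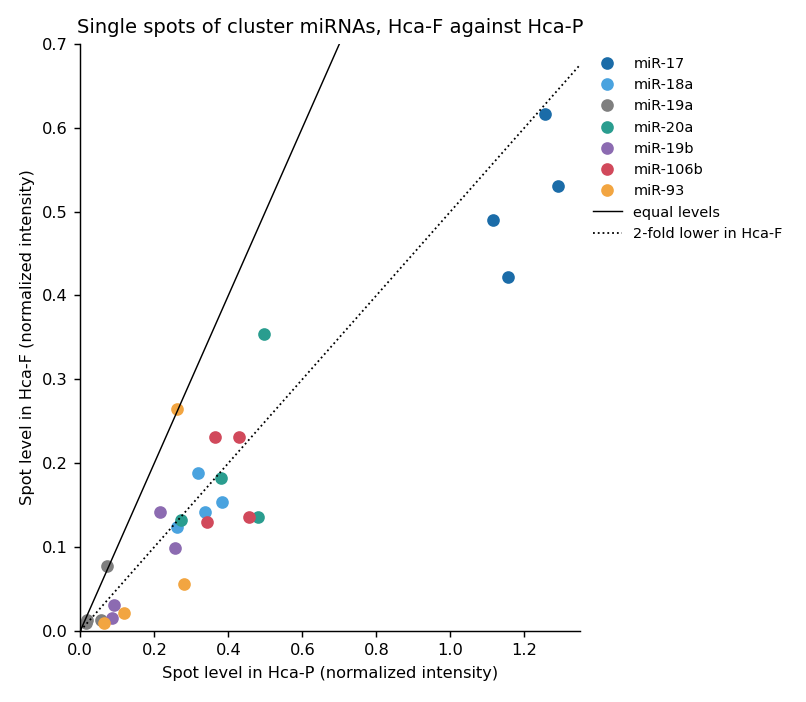
Spot levels of the cluster miRNAs in Hca-F (y axis, normalized intensity) against the spot at the same place in Hca-P (x axis, normalized intensity), 4 points per miRNA. The solid line marks equal levels and the dotted line a 2-fold lower level in Hca-F; all 4 spots of miR-17, miR-18a, miR-20a, miR-19b and miR-106b lie under the solid line.

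The second pair sets Hca-P over its parent line H22. Members were mostly higher in Hca-P, unlike most of the array. Of 6 measured members, miR-17 (log2 fold 1.88, 3.69-fold) and miR-18a (at least 2.39-fold) were 2-fold or more higher and none was lower. miR-18a and miR-19b entered this pair through Hca-P alone, so they could not come out 2-fold lower. Among all 98 miRNAs 15 were higher (15.3%) and 34 lower (34.7%). The median log2 fold was 0.74 over the members and -0.62 over all 98. miR-20a had a log2 fold of 0.93, miR-106b of 0.55 and miR-19b, a bound, of 0.25.

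Folds of single members were also set against each other. miR-93 had a log2 fold of -0.58, so the log2 fold of miR-17 was greater by 2.46 with an SD from the spots of 0.92. miR-17 also exceeded miR-106b, by 1.33 with an SD of 0.59. miR-106b and miR-93, which come from 1 transcript, differed by 1.13 with an SD of 0.99, which the spots do not separate. Spots in Hca-P lay above those in H22 without overlap for 5 of 6 members, against 18 of 98 miRNAs (18.4%). These 5 include miR-18a and miR-19b, which entered this pair because they passed the minimum in Hca-P. After quantile normalization, or with the 75th percentile of mouse probes as the factor, miR-20a and miR-106b joined miR-17 and miR-18a past 2-fold, and the median of all 98 moved to -0.11 and -0.12.

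The third pair sets Hca-F over H22. None of 4 measured members was 2-fold apart, while 31 of all 95 miRNAs were (32.6%). miR-17 had a log2 fold of 0.66 and its spots did not overlap, miR-20a of -0.09, miR-106b of -0.58 and miR-93, a bound, of -0.81. With the 75th percentile of mouse probes as the factor miR-17 was 2-fold higher (log2 1.22), and the median of all 95 moved to 0.47 from -0.09 as reported.

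Each suspension line was also compared with Hepa1-6, where every fold of a member is a bound. In Hca-F miR-17 was at least 4.16-fold higher, and 1 of 3 measured members passed 2-fold, against 22 of 81 miRNAs higher (27.2%) and 8 lower (9.88%), 37% in all. Its spots did not overlap for 2 of 3 members, against 38.3% of all. In Hca-P 4 of 6 members were 2-fold or more higher, against 28 of 89 higher (31.5%) and 22 lower (24.7%): miR-17 at least 9.73-fold, miR-20a at least 3.29-fold, miR-106b at least 3.21-fold and miR-18a at least 2.63-fold. In H22 3 of 4 members were 2-fold or more higher, against 31 of 92 higher (33.7%) and 3 lower (3.26%): miR-17 at least 2.63-fold, miR-106b at least 2.19-fold and miR-93 at least 2.18-fold. Spots of all 4 in H22 lay above those in Hepa1-6 without overlap, as for 48.9% of the 92 (16.3% lay below). With the reported scaling no measured member could come out lower in a suspension line. None passed the minimum in Hepa1-6, and the minimum corresponds to the lowest level on that array. miR-93, measured in neither Hca-F nor Hepa1-6, was at 0.0878 in Hca-F and 0.0997 in Hepa1-6. The count for H22 did not hold: none of the 4 passed 2-fold after quantile normalization, with the 75th percentile of mouse probes or with normexp, and miR-20a had a log2 fold of -0.07 under the second of these. The median of all 92 was 0.31 as reported, -0.39 under quantile normalization and -0.55 under that second scaling. The comparisons with Hepa1-6 share its array, and its origin and its growth form cannot be told apart.

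**Figure D3:**
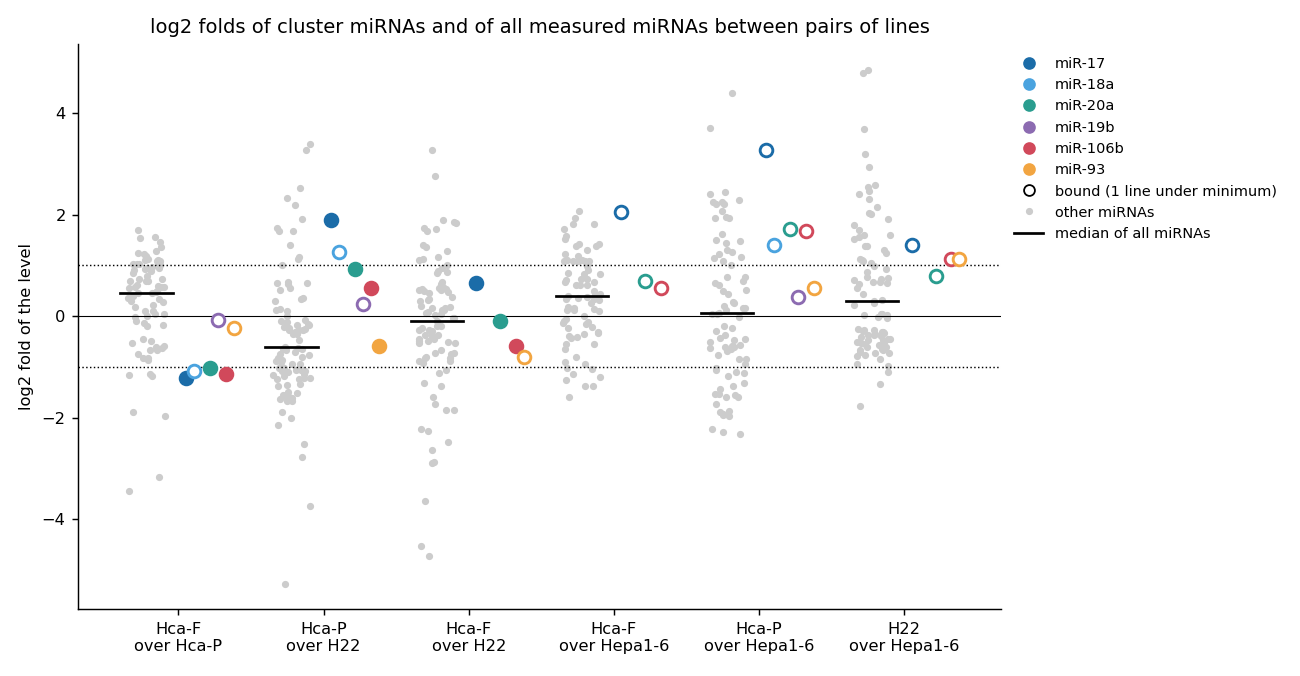
log2 folds of the level for each pair of lines (y axis; the line named first over the second). Grey points are all other miRNAs measured in at least 1 line of the pair. Black bars are the median of all measured miRNAs, the cluster miRNAs included. Coloured points are the cluster miRNAs, open where 1 line was under the detection minimum, so that the fold is a bound. Dotted lines mark 2-fold. In Hca-F over Hca-P 4 members lie at or under -1, where the median of all is 0.45.

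The series is named for metastasis potential, so both lines with it were set against both without, each line being 1 of 2 samples of its class. None of the 6 members passed an adjusted p of 0.05 in limma (Benjamini-Hochberg over 103 miRNAs), where 2 miRNAs did (1.94%), and none had an unadjusted p under 0.05, where 6 of 103 did (5.83%). miR-17 had the largest difference of the members, a log2 difference of 1.97 ± 1.03 (SE) with a limma p of 0.0577, adjusted to 0.651 (0.358 to 0.994 over the alternatives). It was higher in Hca-F and in Hca-P than in H22 and Hepa1-6. The log2 difference was 0.81 ± 0.77 (SE) for miR-20a, 0.79 ± 0.49 for miR-18a, 0.55 ± 0.80 for miR-106b, 0.28 ± 0.32 for miR-19b and -0.13 ± 0.52 for miR-93, with limma adjusted p-values of 0.651 to 0.926. Since Hca-F and Hca-P derive from H22, 3 of the 4 samples are related, and a p-value here covers no more than how these arrays scatter. Both classes are also the array pairs with alike spot deviations, and class and array pair cannot be told apart.

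miRNAs with a pattern like that of miR-17 were ranked by the root mean square difference of their log2 levels, each centred on its own mean, among miRNAs measured in every line. With miR-17 at the minimum in Hepa1-6, the nearest of 54 were miR-675-5p (0.49), miR-689 (0.52), miR-720 (0.55), miR-744 (0.56, from the brighter of 2 probes that disagree) and miR-690 (0.60). miR-675-5p, made from the imprinted H19 transcript, was at 0.734 in Hca-F, 1.34 in Hca-P, 0.843 in H22 and 0.280 in Hepa1-6. Over the 3 suspension lines, where miR-17 was measured (a measure added after seeing the data), the nearest of 58 were miR-689 (0.17) and miR-690 (0.29), with miR-20a at rank 3 (0.41) and miR-106b at rank 10 (0.61). The order over so few lines is a description.

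**Figure D4:**
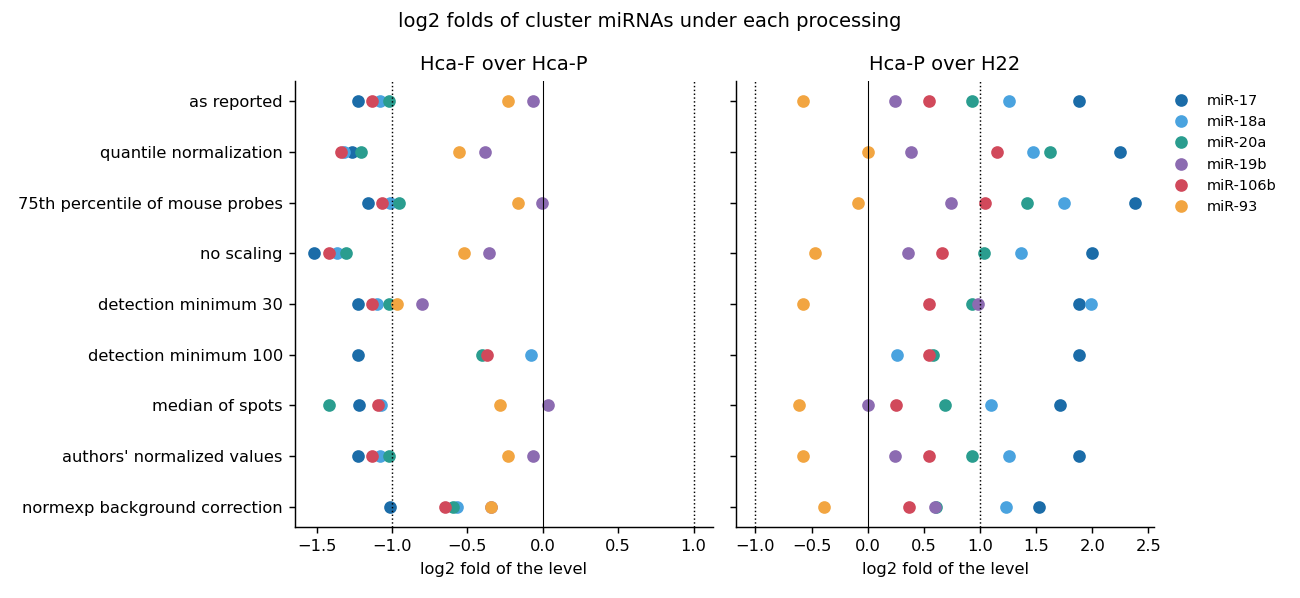
log2 folds of the level of each cluster miRNA (x axis) in Hca-F over Hca-P and Hca-P over H22 under each processing (rows). Dotted lines mark 2-fold; miR-17 keeps its side of the dotted line in every row of both panels.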

How the data were processed

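Per the labels, Hy3-labelled total RNA was hybridised to miRCURY arrays and scanned on a GenePix 4000B. The authors deposited linear intensity values: foreground per spot, the same after local background subtraction, and probe means divided by a median factor. Build, annotation release and probe sequences are not given in the sources used here. Means recomputed from the 4 spots equalled the deposited ones exactly, and normalized values differed by rounding only. Where probes shared a name the brighter was kept. Values under 50 units were set to 50 before scaling. Folds of 2 or more were counted. limma 3.58.1 in R 4.3.3 (lmFit, eBayes with trend, Benjamini-Hochberg) was fitted over all miRNAs measured in at least 1 line, and tested on simulated data. Python 3.11.15 did the rest. With 1 array per line, the number of arrays limits the precision. All 7 members are named. Members, lists and tests were chosen with earlier results of these data known. Alternatives were 3 scalings, minimums of 30 and 100, normexp, median of spots, the authors' normalized values and a 1.5-fold threshold.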

Additional observations from a re-analysis of the deposited data

How the results depend on the processing

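No paired analysis was possible because each line has 1 array. Of 29 member folds, 14 were past 2-fold, and none of these turned sign in any alternative that gave a value (at most 8 each, since a minimum of 100 left some unmeasured). Of these, only miR-17, miR-20a and miR-106b in Hca-F over Hca-P and miR-17 in Hca-P over H22 were measured in both lines. The rest were bounds, whose sign the minimum largely sets in most alternatives. Among 218 alternative values 25 moved by more than the SD from the spots, which takes the 2 arrays of a pair as independent. The 218 include the authors' normalized values, which could not move. For dim members the SD was wide, as for miR-93 in Hca-F over Hca-P (2.14 on the log2 scale). The 25 is therefore no measure of stability. The count of members 2-fold or more apart depended on the detection minimum and the scaling, as given next; counts not listed stayed within 1.5 times. With a minimum of 100 units it was 1 (as reported, 4) for Hca-F over Hca-P, 1 (2) for Hca-P over H22, 1 (4) for Hca-P over Hepa1-6 and 0 (3) for H22 over Hepa1-6, with fewer members measured by construction. With a minimum of 30 it was 1 (0) for Hca-F over H22 and 4 (1) for Hca-F over Hepa1-6. After quantile normalization it was 4 (2) for Hca-P over H22 and 0 (3) for H22 over Hepa1-6. Scaled by the 75th percentile of mouse probes, the count was 4 (2) for Hca-P over H22, 1 (0) for Hca-F over H22 and 0 (3) for H22 over Hepa1-6. Without scaling it was 1 (3) for H22 over Hepa1-6. With normexp it was 1 (4) for Hca-F over Hca-P and 0 (3) for H22 over Hepa1-6. With a 1.5-fold threshold it was 2 (0) for Hca-F over H22 and 2 (1) for Hca-F over Hepa1-6. Where no cause is named, the cause was not tested. The authors' normalized values are the same values and changed nothing. The limma count of members was 0 in every setting, also without any 1 line, where an arm of 1 line is assumed to vary like the other; the lowest unadjusted limma p of a member was 0.0220 (miR-18a, with normexp). The nearest miRNA to miR-17 lay at 0.49 over 4 lines and at 0.17 over the 3 suspension lines, a measure chosen after seeing the data. No member spot read above 512 units, and most member readings lay near or under the detection minimum, which limits their precision.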

Other observations

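The other miRNAs of these clusters were not measured. Of miR-92a, miR-25, miR-106a, miR-20b and miR-363, which the array holds, none passed the minimum in any line, and the brightest reading was 17.8 units (miR-106a in H22). miR-92a, cut from the same transcript as miR-17, read 1.25 units in Hca-F, 9.0 in Hca-P, 6.5 in H22 and 0.5 in Hepa1-6. miR-25, the neighbour of miR-106b and miR-93, read 4.75 units in Hca-F, 8.25 in Hca-P, 7.75 in H22 and 0.5 in Hepa1-6. Both miR-92a and miR-25 read under the median mouse probe of every array, so no order of the lines was read from them. That median was 7.5 units in Hca-F, 11.0 in Hca-P and in H22, and 3.5 in Hepa1-6. The 6 star strands on the array, the opposite arms of these hairpins, read at most 17.5 units. Of 8 other miRNAs on the array that share a seed of these clusters or a close one, none read above 10.5 units.

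miRNAs known to be lowered by MYC were read as a second list of 28, of which 27 were on the array and 13 were measured. All 13 were measured in H22, so bounds in its pairs could not come out 2-fold lower in H22. Such bounds numbered 4 against Hca-P, 7 against Hca-F and 6 against Hepa1-6. The counts and medians include them. Bounds in the other pairs numbered 3 (Hca-F over Hca-P), 1 (Hca-F over Hepa1-6) and 4 (Hca-P over Hepa1-6). Between Hca-F and Hca-P 1 of 9 was 2-fold higher in Hca-F and 5 were lower by as much, with a median log2 fold of -1.18 against 0.45 over all 85 miRNAs, of which 23.5% were higher and 12.9% lower. Between Hca-P and H22 6 of 13 were lower in Hca-P and none higher, with a median of -0.99 against -0.62 over all 98, of which 34.7% were lower. Between Hca-F and H22 7 of 13 were lower in Hca-F and none higher (17.9% of all 95 were lower), with a median of -1.60. Between Hca-F and Hepa1-6 1 of 7 was higher in Hca-F and none lower (27.2% of all 81 were higher), with a median of 0.26. Between Hca-P and Hepa1-6 6 of 10 were higher in Hca-P and 1 lower (31.5% and 24.7% of all 89), with a median of 1.36. Between H22 and Hepa1-6 9 of 13 were higher in H22 and none lower, with a median of 1.92 against 0.31 over all 92, of which 33.7% were higher. The median over all 92 turned to -0.39 after quantile normalization and to -0.55 when arrays were scaled by their 75th percentile, and the list was not recomputed under these. The 4 with the widest range over the lines were let-7d, let-7a and let-7i, of a family known to repress RAS, and miR-23a. let-7d was at 0.438 in Hca-F, 3.96 in Hca-P, 5.47 in H22 and 0.189 in Hepa1-6. let-7a was at 0.475 in Hca-F, 5.15 in Hca-P, 11.0 in H22 and 0.396 in Hepa1-6. let-7i and miR-23a were measured in Hca-P (0.572 and 0.604) and H22 (1.14 and 0.954) and were under the minimum in Hca-F and Hepa1-6.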
